A study of Mus musculus with 6 samples.

Results

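Neutrophils leave the blood by rolling on selectins and then holding on through integrins. The RNA of 9 genes of that machinery was followed here in bone marrow neutrophils of WT and LRP5-null mice. The genes were Itgam, Itgal, Itgax, Itgb2, Itgb1, Itga4, Itgb7, Selplg and Cd44. They were found by their symbols in the deposited expression table and took up 10 of its 52636 rows, because the symbol Itgam stands on a pair of rows with different identifiers. All 10 rows reached the mean of 1 TPM that a gene needed to be tested, as did 9775 genes in all. There were 6 libraries of C57BL/6N mice at 10 weeks of age, 3 of the genotype WT and 3 of the genotype LRP5f/f/Lyz2Cre+, in which Cre recombinase made from the Lyz2 gene acts on floxed Lrp5 alleles. The Cre is active in monocytes and macrophages as well as in neutrophils, and whether the WT mice carried the floxed alleles or the Cre is not given in the labels.

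Integrins are pairs of an alpha and a beta chain that span the membrane and bind ligands once signals inside the cell have unfolded them. The chain CD18, made from Itgb2, pairs with CD11a (Itgal) to form LFA-1, with CD11b (Itgam) to form Mac-1 and with CD11c (Itgax). These β2 integrins hold neutrophils on ICAM proteins of the vessel wall and, in the case of Mac-1, bind complement fragments and fibrinogen. The chain α4, from Itga4, pairs with β1 (Itgb1) or β7 (Itgb7) and binds VCAM-1, fibronectin or MAdCAM-1. PSGL-1, from Selplg, is the main ligand of P-selectin, and CD44 is a hyaluronan receptor that, suitably glycosylated, also binds E-selectin.

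Each library held between 249841492 and 340580330 reads. Values are TPM, a unit scaled by the authors for gene length and to one common total per library, so levels can be compared between genes, while the counting error of a gene is unknown. Lrp5 itself was at 1.12, 1.31 and 1.42 TPM in the WT libraries and at 1.68, 1.77 and 2.07 TPM in those labelled LRP5-null. The transcript of the targeted gene was thus no lower under the LRP5-null label, so it did not serve as a check of the labels. Lyz2, the gene that carries the Cre, was lower under that label (24797 to 26791 TPM in WT against 13360 to 14027 TPM, log2 fold change −0.91, limma adjusted p = 0.00351). WT replicates 1 and 2 stood apart from the other 4 libraries in the share of reads in ribosomal RNA (1.20% and 1.30% against 2.69% to 3.30%) and in their relation to GC content. Across 8769 genes, the deviation of a library from the mean of all 6 had a Spearman correlation with transcript GC content of −0.611 and −0.433 in these WT libraries and of 0.331 to 0.437 in the others. In both respects WT replicate 3 resembled the LRP5-null group. Intronic reads separated the groups, at 7.78% to 9.0% of reads in WT and 10.62% to 11.23% under the LRP5-null label, with WT replicate 3 on the WT side. The part of this share in the results below was not tested. The labels name a Percoll gradient and an mRNA kit, whereas the methods name a sort for CD11b and Ly6G and a total RNA kit. If cells were sorted on CD11b, the product of Itgam was itself a criterion of the sort.

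The Itgb2, Itgam, Cd44 and Selplg transcripts were the most abundant. The second Itgam row and Itgal followed, and Itgb1, Itga4, Itgb7 and Itgax were far lower. In the WT libraries the order of mean TPM was Itgb2, Cd44, Itgam, Selplg, the second Itgam row, Itgal, Itgb1, Itga4, Itgb7 and Itgax. Neighbours in that order overlapped between libraries for Cd44 and Itgam, for the second Itgam row and Itgal, and for Itgb7 and Itgax. In the libraries labelled LRP5-null the means of Cd44 and Itgam changed places, again with overlap, and Itgb1 overlapped Itga4. Itgb2 ranked 52nd by mean level among the 9775 genes tested, while Itgb7 and Itgax ranked 4906th and 5140th.

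None of the 10 rows passed an adjusted p under 0.05 in limma, a threshold that 0.532% of all genes tested passed (52 genes). At an unadjusted p under 0.05 there were 4 rows, against 23.5% of all genes. The groups did not overlap for 5 of the 10 rows, against 29.7% of all genes. In 2 rows every library labelled LRP5-null was above every WT library (17.4% of all genes), and in 3 it was below (12.3% of all genes). The median log2 fold change over the rows was −0.09, where that of all genes tested was 0.04. Itgax and Itgb7 were the rows that lay higher without overlap, and Itgb1, Cd44 and Selplg those that lay lower. RNA of a whole cell preparation does not tell fewer expressing cells from less RNA per cell.

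**Figure D1:**
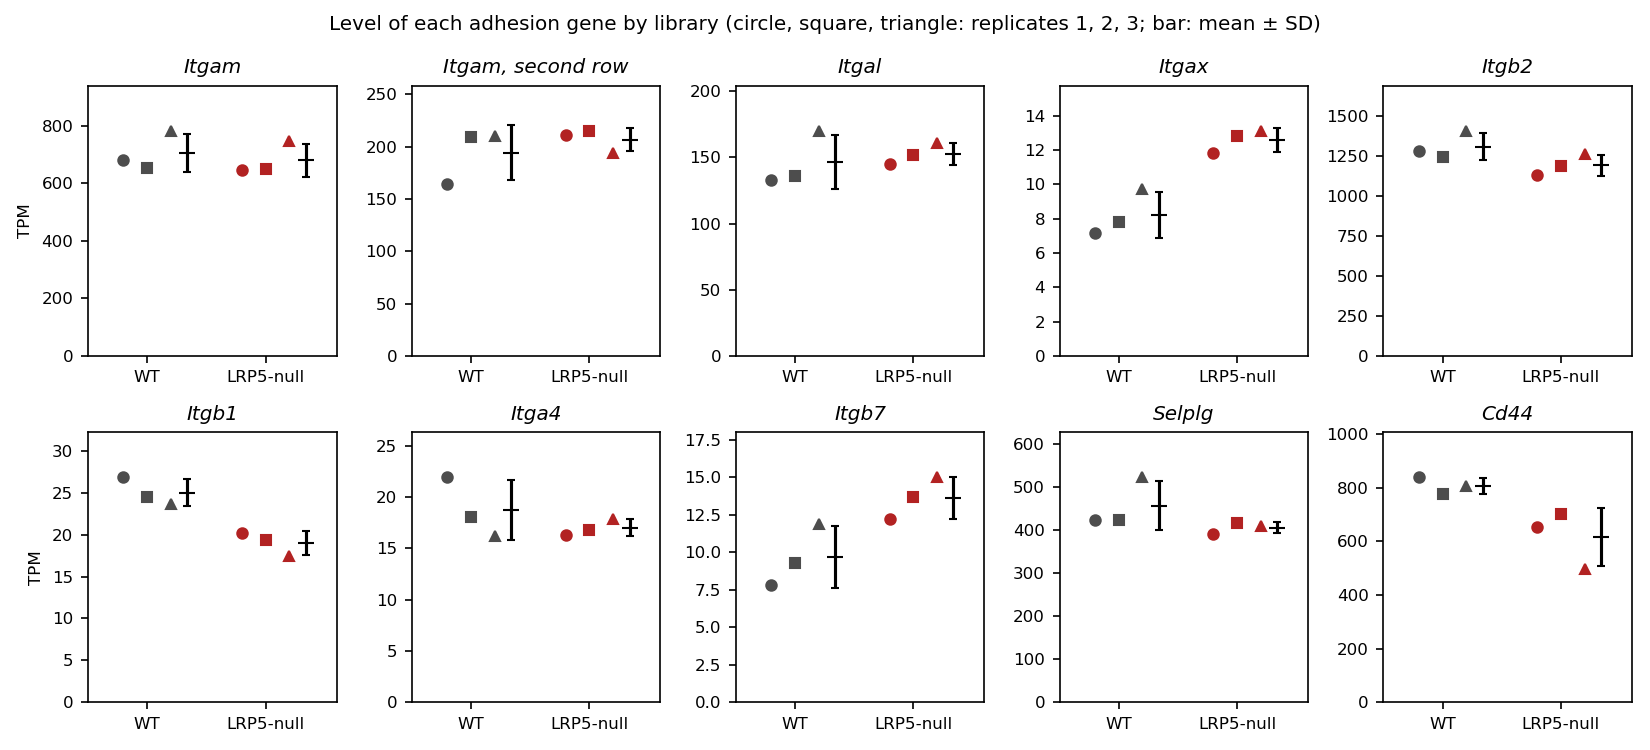
TPM of each row in each library, with WT in grey and the libraries labelled LRP5-null in red. Marks are replicates 1 to 3 and bars are mean ± SD (n = 3), and every axis starts at 0. The groups separate for Itgax, Itgb7, Itgb1, Cd44 and, narrowly, Selplg.

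Itgb2, the beta chain shared by all β2 integrins, was measured at 1280, 1242 and 1407 TPM in WT replicates 1 to 3. It was at 1129, 1189 and 1260 TPM in LRP5-null replicates 1 to 3. The highest library labelled LRP5-null lay above the lowest WT library, and the means were 1310 ± 86.8 and 1193 ± 65.4 TPM (SD, n = 3 each). On the scale of log2(TPM + 1) the difference was −0.13 (95% interval −0.30 to 0.04, limma adjusted p = 0.303).

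Itgam, the alpha chain of Mac-1, stood at 681, 655 and 782 TPM in the WT libraries. In those labelled LRP5-null it stood at 645, 650 and 746 TPM. The groups overlapped over nearly their whole range, and the log2 fold change of −0.05 had a 95% interval from −0.27 to 0.16 (limma adjusted p = 0.763). The second row named Itgam, ENSMUSG00000108596.1, was at 164, 209 and 210 TPM in WT and at 211, 215 and 194 TPM in those labelled LRP5-null. Its log2 fold change was 0.10 (95% interval −0.15 to 0.34, limma adjusted p = 0.600). This identifier had no position in the NCBIM37 annotation, and the authors' quantification could have split reads of one locus between the rows, so the level of Itgam is uncertain by the amount of the second row. The sign of neither row was the same under every alternative.

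Itgal, the alpha chain of LFA-1, was at 133, 136 and 170 TPM in WT. It was at 145, 152 and 161 TPM in the libraries labelled LRP5-null, all inside the range of the WT libraries. Its log2 fold change was 0.07 (95% interval −0.18 to 0.31, limma adjusted p = 0.730), and it was −0.16 when WT replicate 3 was the only WT library used.

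Itgax, the alpha chain CD11c that is best known from dendritic cells, was measured at 7.17, 7.78 and 9.73 TPM in WT replicates 1 to 3. It was at 11.8, 12.8 and 13.1 TPM in LRP5-null replicates 1 to 3. Every library labelled LRP5-null was above every WT library, and the mean was 1.53 times that of WT. The log2 fold change of 0.56 (95% interval 0.30 to 0.83) was the largest of the 10 rows, with a limma adjusted p of 0.0754. Without WT replicate 3 it was 0.68 and passed (limma adjusted p = 0.0104), in a fit in which 19.6% of all genes tested passed. Against WT replicate 3 alone it was 0.34 (limma adjusted p = 0.227). After removal of GC and length trends it was 0.50 and passed (limma adjusted p = 0.0263), where 4.58% of all genes passed. Over all 18 alternatives the adjusted p of Itgax ranged from 0.0104 to 0.279, and its sign was the same in each.

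Itgam and Itgax are neighbours on chromosome 7 of NCBIM37 (mm9), both on the plus strand. Itgam runs from 135206154 to 135271674 and Itgax from 135273061 to 135294171, with 1386 bases between them, and Itgal lies 727502 bases before Itgam, from 134439774 to 134478651. Their mean levels were 706 ± 66.9 and 8.23 ± 1.34 TPM in WT (SD, n = 3 each). The promoters of this neighbouring pair are shown because their levels differ so widely. They are of RefSeq's GRCm38.p6, from 250 bases before to 50 after the start, at chr7:128062390-128062689 for Itgam and chr7:128129300-128129599 for Itgax, both on the plus strand. Capitals mark matches on either strand to GAGGAA, a core bound by the myeloid factor PU.1, and to GGGCGG, the GC box bound by Sp1, and no matches overlap.

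Itgam: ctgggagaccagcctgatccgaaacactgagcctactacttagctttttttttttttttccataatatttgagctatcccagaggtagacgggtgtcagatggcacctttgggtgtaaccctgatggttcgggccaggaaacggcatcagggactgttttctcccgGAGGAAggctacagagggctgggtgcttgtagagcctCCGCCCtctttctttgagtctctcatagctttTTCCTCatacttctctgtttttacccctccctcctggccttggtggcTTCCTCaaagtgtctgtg

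Itgax: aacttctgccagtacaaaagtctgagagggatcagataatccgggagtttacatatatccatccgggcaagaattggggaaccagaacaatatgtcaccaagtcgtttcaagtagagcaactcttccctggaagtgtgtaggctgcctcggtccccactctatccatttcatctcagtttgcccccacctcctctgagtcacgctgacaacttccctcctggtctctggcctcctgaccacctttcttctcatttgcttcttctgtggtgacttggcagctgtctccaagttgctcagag

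The Itgam window held 3 matches to GAGGAA and 1 to GGGCGG, and the Itgax window held 0 of either. Among 27025 promoters of the same length, 28.3% held GAGGAA and 35.9% held GGGCGG. Windows were found for 6 of the 9 genes, Itgam, Itgax, Itgb1, Itga4, Itgb7 and Cd44. Of matches to GAGGAA and GGGCGG the Cd44 window held 2 and 1, and the Itga4 window 0 and 1. Those of Itgb1 and Itgb7 are given below. A match is a run of letters and was not tested as a binding site.

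Itgb1, the beta chain of VLA-4 and many other matrix receptors, was measured at 26.8, 24.5 and 23.7 TPM in WT replicates 1 to 3. It was at 20.2, 19.4 and 17.4 TPM in LRP5-null replicates 1 to 3. Every library labelled LRP5-null was below every WT library, a difference in mean of −23.9%. The log2 fold change of −0.38 had a 95% interval from −0.58 to −0.18 and a limma adjusted p of 0.0907. It was −0.31 against WT replicate 3 alone and −0.32 after removal of GC and length trends. It passed only without WT replicate 3 (−0.41, limma adjusted p = 0.0269), in a fit in which 19.6% of all genes tested passed. The adjusted p ranged from 0.0269 to 0.299 over 18 alternatives.

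Itgb7, the beta chain of the α4β7 integrin that homes lymphocytes to the gut, was at 7.83, 9.32 and 11.9 TPM in WT. It was at 12.2, 13.7 and 15.0 TPM in the libraries labelled LRP5-null. The groups did not overlap, although WT replicate 3 lay next to the lowest library labelled LRP5-null, and the mean was 1.41 times that of WT. The log2 fold change was 0.46 (95% interval 0.12 to 0.81, limma adjusted p = 0.141). This value depended on the WT library it was set against. It was 0.61 without WT replicate 3 (limma adjusted p = 0.0204), in a fit in which 19.6% of all genes tested passed. It was 0.25 with ribosomal share as covariate (limma adjusted p = 0.281) and 0.17 against WT replicate 3 alone. The adjusted p ranged from 0.0204 to 0.523 over 18 alternatives.

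Itga4, the alpha chain that both Itgb1 and Itgb7 can serve, was measured at 21.9, 18.1 and 16.2 TPM in WT. It was at 16.3, 16.8 and 17.9 TPM in the libraries labelled LRP5-null. The latter lay inside the range of the WT libraries, and the log2 fold change was −0.13 (95% interval −0.39 to 0.13, limma adjusted p = 0.519). Its sign turned to 0.06 against WT replicate 3 alone.

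The promoters of Itgb1 and Itgb7 are shown because the levels of these alternative partners of α4 lay apart in opposite directions. They are of RefSeq's GRCm38.p6, at chr8:128685404-128685703 on the plus strand for Itgb1 and at chr15:102231886-102232185 on the minus strand for Itgb7, with capitals as above.

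Itgb1: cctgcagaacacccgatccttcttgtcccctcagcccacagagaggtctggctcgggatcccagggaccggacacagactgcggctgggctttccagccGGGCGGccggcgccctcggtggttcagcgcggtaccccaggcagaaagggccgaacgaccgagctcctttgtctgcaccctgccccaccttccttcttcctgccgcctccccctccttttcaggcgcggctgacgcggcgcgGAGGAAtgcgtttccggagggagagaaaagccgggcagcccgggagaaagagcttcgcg

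Itgb7: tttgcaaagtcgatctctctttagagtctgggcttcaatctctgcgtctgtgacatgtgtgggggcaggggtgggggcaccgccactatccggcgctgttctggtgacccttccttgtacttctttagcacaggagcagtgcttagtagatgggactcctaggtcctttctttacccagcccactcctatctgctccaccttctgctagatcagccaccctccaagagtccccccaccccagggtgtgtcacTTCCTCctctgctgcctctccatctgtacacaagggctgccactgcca

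The Itgb1 window had a GC content of 67.3% and 27 CpG pairs, and the Itgb7 window had 56.3% and 5, where the medians of all promoters were 52.7% and 7. Each held 1 match to GAGGAA, and Itgb1 held 1 to GGGCGG. The transcripts are ordered the other way, with 44.8% GC in Itgb1 and 58.0% in Itgb7 (longest coding transcript, GENCODE M1), against a median of 50% over genes tested.

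Because TPM is per length, the levels of chains can be set against each other within a library. TPM is not corrected for GC content, with which the libraries deviated in different directions. No ratio was run with GC trends removed or against WT replicate 3 alone. Itgb2 stood at 1.56, 1.55 and 1.46 times the summed TPM of its alpha partners Itgam, Itgal, Itgax and Itgad in the WT libraries. The second Itgam row was left out of these sums and of the alpha shares below. Adding it would lower the ratio in every library. The ratio was 1.41, 1.46 and 1.37 in the libraries labelled LRP5-null, which lay below WT in each case, by the third decimal for the closest pair. The means were 1.53 ± 0.0536 and 1.41 ± 0.0446 (SD, n = 3 each), and the exact permutation test, two-sided, gave p = 0.1, the smallest p that 3 libraries against 3 allow. Under quantile scaling the groups overlapped (p = 0.3, exact). Itgad, the remaining β2 partner, was under 0.5 TPM in every library.

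Itgam made up 82.0% ± 0.798 of the alpha partners in WT and 80.4% ± 0.646 in the libraries labelled LRP5-null (SD, n = 3 each). Itgal made up 17.0% ± 0.726 and 18.1% ± 0.564, and Itgax 0.953% ± 0.0718 and 1.49% ± 0.0772 (SD, n = 3 each). The shares of Itgam and Itgax did not overlap between the groups (exact permutation test, two-sided, p = 0.1 for each), and those of Itgal did (p = 0.2, exact). Itgam was the most abundant β2 alpha transcript in every library.

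The partners of α4 were compared in the same way. Itgb7 made up 22.6%, 27.6% and 33.4% of the summed TPM of Itgb1 and Itgb7 in WT replicates 1 to 3. It made up 37.5%, 41.3% and 46.3% in LRP5-null replicates 1 to 3. The groups did not overlap, with means of 27.9% ± 5.40 and 41.7% ± 4.39 (SD, n = 3 each) and p = 0.1 in the exact permutation test, two-sided. Leaving out a library gave a difference between 11.2 and 16.6 percentage points. Within WT the share was highest in replicate 3, and the transcripts have 58.0% GC in Itgb7 and 44.8% in Itgb1. The part of GC content in this share was not tested. Itga4 stood at 0.541 ± 0.0880 and 0.520 ± 0.0273 times the sum of these beta chains (SD, n = 3 each), with overlap (exact permutation test, two-sided, p = 0.8). β1 also pairs with other alpha chains, so these shares describe transcripts and not assembled receptors.

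**Figure D2:**
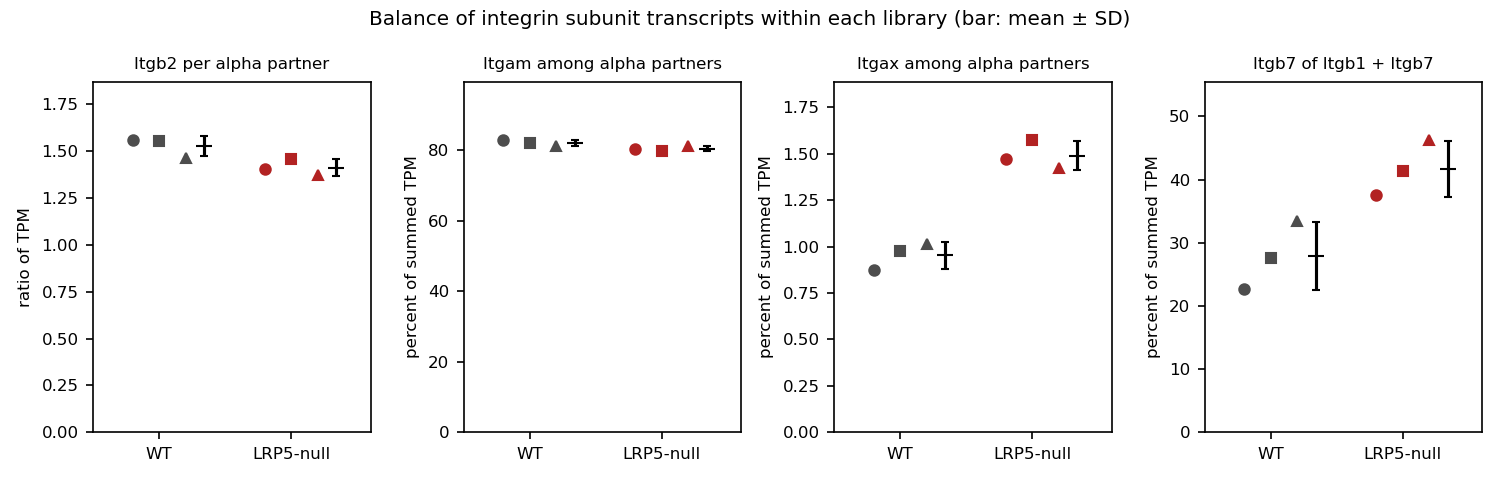
Balance of integrin chains within each library, as a ratio of TPM or as a percent of summed TPM, with marks for replicates 1 to 3 and bars for mean ± SD (n = 3). The share of Itgb7 runs from 22.6% to 33.4% in WT and from 37.5% to 46.3% in the libraries labelled LRP5-null.

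Selplg, which encodes PSGL-1, was measured at 424, 423 and 522 TPM in WT. It was at 392, 416 and 409 TPM in the libraries labelled LRP5-null. Each of the latter lay below each WT library, by a small margin, since the highest of them and the lowest WT library were 416 and 423 TPM. The log2 fold change was −0.16 (95% interval −0.38 to 0.05, limma adjusted p = 0.323). It ranged from −0.06 without WT replicate 3 to −0.36 against WT replicate 3 alone. After removal of GC and length trends, Selplg (−0.26, limma adjusted p = 0.0445) and Itgb2 (−0.21, limma adjusted p = 0.0455) passed along with Itgax, where 4.58% of all genes did. Their adjusted p ranged from 0.0445 to 0.549 and from 0.0455 to 0.587 over 18 alternatives.

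Cd44 was at 838, 777 and 806 TPM in the WT libraries. It was at 654, 703 and 496 TPM in those labelled LRP5-null. The groups did not overlap, and LRP5-null replicate 3 was well below the other libraries of its label, so that the means were 807 ± 30.4 and 618 ± 108 TPM (SD, n = 3 each). The log2 fold change of −0.40 had a 95% interval from −0.69 to −0.11 (limma adjusted p = 0.141). Without LRP5-null replicate 3 it was −0.25 (limma adjusted p = 0.267), and against WT replicate 3 alone it was −0.40. The adjusted p ranged from 0.0976 to 0.384 over the 18 alternatives.

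The members that lay lower without overlap included the AT-rich transcripts of Itgb1 and Cd44 (44.8% and 44.5% GC) and the GC-rich one of Selplg (55.6%), and those that lay higher had 51.6% (Itgax) and 58.0% (Itgb7). WT replicates 1 and 2 followed GC content in the opposite direction to the other libraries, so the values with GC and length trends removed are given too. They were 0.50 for Itgax, 0.35 for Itgb7, −0.32 for Itgb1, −0.37 for Cd44 and −0.26 for Selplg. The signs were unchanged, and the size was smaller for Itgax, Itgb7, Itgb1 and Cd44 and larger for Selplg. The part of GC content in these differences was not tested.

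**Figure D3:**
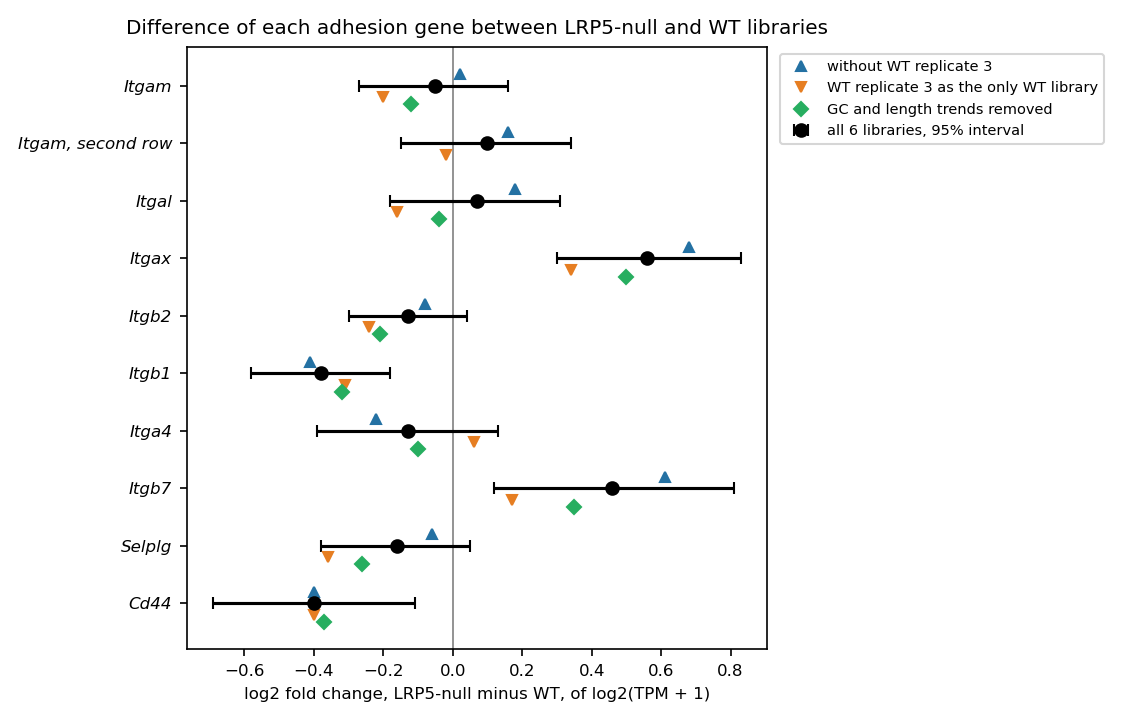
Log2 fold change of each row on the scale of log2(TPM + 1), LRP5-null minus WT. Black points are the fit of all 6 libraries with 95% intervals, and coloured marks the fits without WT replicate 3, with WT replicate 3 as the only WT library and with GC and length trends removed (no such value for the second Itgam row). The intervals of Itgax, Itgb7, Itgb1 and Cd44 leave out 0, and Itgax and Itgb7 lie closest to 0 against WT replicate 3 alone.

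The closest patterns to Itgb1 among genes outside the lists used here were those of Wfdc17, Hltf and Trim5. Likeness was measured as the root mean square difference of log2(TPM + 1), centred on each gene's own mean, over the 6 libraries, and was 0.0478, 0.0529 and 0.0572. Wfdc17, for example, was at 239, 227 and 235 TPM in WT and at 191, 186 and 173 TPM in the libraries labelled LRP5-null. For Itgb2 the closest were Ptger4 (a prostaglandin E2 receptor), Edem1 and Vim (vimentin), with 0.0145, 0.0169 and 0.0193.

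Other genes of adhesion were taken as lists from general knowledge. Of 19 other integrin chains 6 were tested and 0 passed, although 5 of the 6 lay higher (median log2 fold change 0.20, against 0.04 for all genes). At an unadjusted p under 0.05 there were 3 of the 6, against 23.5% of all genes tested. Itgb3, the partner of αv and αIIb, was at 23.2, 24.0 and 27.9 TPM in WT and at 29.4, 29.8 and 31.3 TPM in the libraries labelled LRP5-null. It lay above Itgb1 in each library labelled LRP5-null and also in WT replicate 3. Its log2 fold change was 0.26 (limma adjusted p = 0.150). Itga6, a laminin receptor chain, and Itga8 each had 0.24 (limma adjusted p = 0.160 and 0.168). Itga3, Itga11, Itgb4, Itgb6 and Itgb8 were listed at 0 in every library.

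Among 17 tested genes of integrin activation and its control, 1 passed, against 0.532% of all genes tested. Some of their products help to unfold integrins from inside the cell, and others, such as that of Sipa1, restrain this. Cyth1, which encodes cytohesin-1, an exchange factor for ARF GTPases known to bind the tail of CD18, was at 32.9, 35.9 and 38.1 TPM in WT. It was at 68.5, 54.6 and 60.2 TPM in the libraries labelled LRP5-null, every one above every WT library. Its transcript rose by a log2 fold change of 0.76 (95% interval 0.52 to 0.99, limma adjusted p = 0.0357). Of the 6 fits that left out a library, 1 passed, that without WT replicate 3 (0.81, limma adjusted p = 0.0117). In that fit 19.6% of all genes tested passed. The other 5 gave 0.67 to 0.83, with a highest limma adjusted p of 0.178 without LRP5-null replicate 1, and the adjusted p over all 18 alternatives ranged from 0.0117 to 0.178, with 9 of them under 0.05.

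Rapgef1, an exchange factor for RAP1 GTPases, and Rap1a, such a GTPase, had log2 fold changes of 0.58 and −0.53 (limma adjusted p = 0.0855 and 0.0892). Rap1a was at 101, 125 and 92.5 TPM in WT and at 76.0, 75.5 and 66.4 TPM in the libraries labelled LRP5-null. Without WT replicate 3, Rapgef1 and Rap1a had 0.70 and −0.62. Against WT replicate 3 alone they had 0.34 and −0.35. Tln1, encoding talin-1, and Fermt3, encoding kindlin-3, which bind integrin beta tails, did not pass either. The log2 difference of Tln1 was 0.16 (limma adjusted p = 0.380), and Fermt3 means of 152 ± 18.3 and 151 ± 5.43 TPM (SD, n = 3 each; limma adjusted p = 0.993). In the list 8 genes were higher and 9 lower, with genes that promote and genes that restrain activation counted together. Without overlap 2 were higher and 2 lower (17.4% and 12.3% of all genes tested). Apbb1ip was among the lower, at 241, 207 and 206 TPM in WT and 162, 173 and 177 TPM under the LRP5-null label. It had −0.35 and Rap1b, with overlap, −0.40 (limma adjusted p = 0.1 and 0.215).

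Of 21 tested genes of adhesion adaptors and kinases downstream of integrins 0 passed, with 8 higher and 13 lower and a median of −0.04. Lyn, a Src family kinase, and Lcp2, which encodes the adaptor SLP-76, both had −0.24 (limma adjusted p = 0.129 and 0.153). Lims1, encoding PINCH1, was at 178, 198 and 185 TPM in WT and at 84.7, 159 and 164 TPM in the libraries labelled LRP5-null, with LRP5-null replicate 1 far below the rest (−0.52, limma adjusted p = 0.232, and −0.21 without that library).

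Of 15 tested genes of selectins and of the glycosylation of their ligands 0 passed, with 8 higher and 7 lower. C1galt1, which extends the O-glycans that PSGL-1 carries, had −0.51 and the sialyltransferase gene St3gal3 0.34 (limma adjusted p = 0.119 and 0.0973). For C1galt1 it was −0.66 without WT replicate 3 and −0.20 against WT replicate 3 alone. Fut7, whose product adds the fucose that selectins need, was at 4.0 to 8.79 TPM in WT and at 5.19 to 9.81 TPM in the libraries labelled LRP5-null.

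Of 7 tested counter-receptor genes 0 passed. Icam1, whose product binds LFA-1 and Mac-1, Icam2 and Fn1 (fibronectin) had 0.39, 0.41 and 0.39 (limma adjusted p = 0.0904, 0.102 and 0.116), all at levels under 8 TPM. Of 16 tested membrane partners, such as tetraspanins, sheddases and proteins that tie CD44 and PSGL-1 to actin, 0 passed as well. Cd53, a leukocyte tetraspanin gene, was at 1097, 910 and 681 TPM in WT and at 548, 551 and 555 TPM in the libraries labelled LRP5-null (−0.67, limma adjusted p = 0.0954). Its log2 fold change was −0.86 without WT replicate 3, −0.30 against WT replicate 3 alone and −0.39 with GC and length trends removed. Adam10, a sheddase that can cut CD44, had −0.37 and Ezr (ezrin) −0.21 (limma adjusted p = 0.106 and 0.176).

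**Figure D4:**
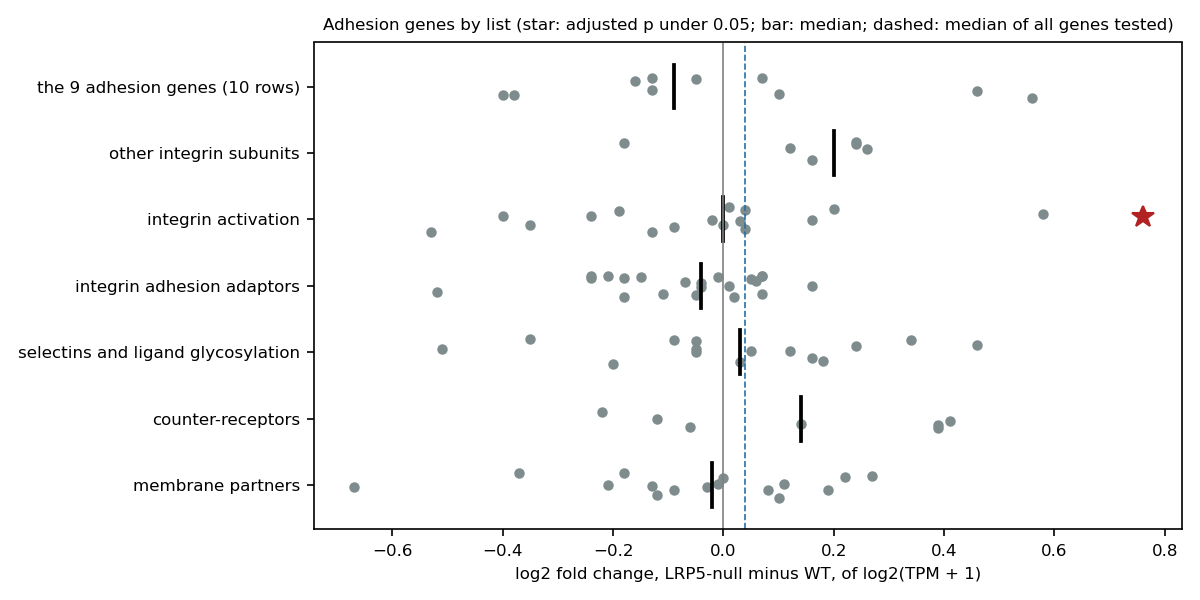
Log2 fold change (LRP5-null minus WT, log2(TPM + 1)) of each tested gene in the 7 adhesion lists. Black bars are list medians and the dashed line the median of all genes (0.04). The star, Cyth1 at 0.76, is the only gene in them with an adjusted p under 0.05.

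Markers of neutrophils dominated every library, with 11 of 11 tested and a summed level of 397606 to 442176 TPM in WT and 426197 to 446623 TPM in the libraries labelled LRP5-null. Itgax and Itgb7 are also expressed by dendritic cells and lymphocytes. Markers of monocytes, macrophages and dendritic cells summed to 80.6 to 98.7 TPM in WT and to 86.3 to 95.5 TPM in the libraries labelled LRP5-null. Of 9 tested 3 were higher, and 3 of 12 were under 1 TPM in every library. Without overlap 1 lay higher, Adgre1 (10.3 to 12.6 TPM in WT, 14.4 to 15.6 TPM under the LRP5-null label, limma adjusted p = 0.103). H2-Ab1 was the 1 that lay lower without overlap (limma adjusted p = 0.19). Over all genes tested these shares were 17.4% and 12.3%. Those of B cells summed to 13.1 to 15.8 and 13.7 to 14.3 TPM, with 3 of 5 tested higher and 3 of 8 under 1 TPM. Those of T and NK cells summed to 12.6 to 14.2 and 16.6 to 18.0 TPM, with both of the 2 tested higher. Most of that sum was Cd3d (9.33 to 10.6 and 13.4 to 14.5 TPM), while Cd3e was under 0.2 TPM in every library. No marker of these lists was listed at 0 throughout. The part of other cells in the values of Itgax and Itgb7 was not tested.

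Genes of immature and mature neutrophils were looked at beside these results. Of 18 immature markers 16 lay higher in the libraries labelled LRP5-null, 10 of them without overlap (17.4% of all genes tested), with a median log2 fold change of 0.22, where that of all genes was 0.04. Of 17 mature markers 11 lay lower, 6 without overlap (12.3% of all genes tested), and 6 lay higher, 1 (Junb) without overlap, with a median of −0.11. None of either list had an adjusted p under 0.05 in limma, and 10 of the immature and 7 of the mature markers, of which 6 were lower and 1 higher, had an unadjusted p under 0.05 (23.5% of all genes tested). The part of cell maturity in the values of Cd44 and the integrin genes was not tested.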

How the data were processed

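RNA of bone marrow neutrophils was sequenced in 3 WT and 3 LRP5-null libraries. The methods name alignment to mm9 and the DESeq2 pipeline, and the authors deposited TPM, per length and per fixed total, with no tool named for it. A second deposited file summarises each library as counts of reads, percent of reads by class and a ratio of coverage bias. Identifiers are of a later annotation than mm9. Positions, lengths and GC content came from GENCODE M1 (NCBIM37), matched on unversioned identifiers, for 9 of 10 rows and 89.7% of genes tested.

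Genes averaging 1 TPM or more were compared on log2(TPM + 1) by limma 3.58.1 (R 4.3.3) with its trend option, 2 groups, no covariate and Benjamini-Hochberg adjustment over all 9775 genes, since TPM holds no counts. This scale understates changes of low genes. The fit was tested on simulated data with genes drawn independently, so the test did not cover library-wide shifts such as those with GC content. Ratios were tested by exact permutation (SciPy 1.17.1). Nothing in the labels says that replicates were separate animals, so p-values may measure technical spread. Members and lists were chosen with earlier results of these data known. The genes named were the members, Lrp5, Lyz2, in each adhesion list the 3 tested genes of smallest p and any that passed, and the 3 most like Itgb1 and Itgb2. A gene that this rule names is not reported here. Others (Tln1, Fermt3, Fut7, Itgad, Cd3d, Cd3e, Junb and those in the closing section) were named after their values were seen. Alternatives were the pseudocount, filters, scalings, limma's prior, each library left out, replicate number as a block, the ribosomal share as covariate, GC and length trends removed by loess, and WT replicate 3 as the only WT library. Summing both Itgam rows was added after the data had been seen.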

Additional observations from a re-analysis of the deposited data

How the results depend on the processing

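Of 52 genes called over all genes tested (26 higher), the count was 3 without a filter, 29 with a mean of at least 5 TPM, 96 after rescaling without mitochondrial and top genes (69 higher, 49 shared), 6 with the ribosomal share as covariate, 402 with GC and length trends removed (148 higher, among 8769 genes) and 6 with WT replicate 3 as the only WT library, a fit in which the single WT library is assumed to vary like the others. Leaving out each library gave 2 to 1920 genes, and 0 to 3 of the 10 rows, the 3 being Itgax, Itgb1 and Itgb7 without WT replicate 3. With GC and length trends removed 3 rows were called, Itgax, Itgb2 and Selplg. The other alternatives called 0. The cause was not tested.

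Over 179 alternative values of the 10 rows, 8 changed sign, in rows that were not called. Itgam was 0.02 under quantile scaling and without WT replicate 3 (−0.12 to 0.02 over fits leaving out a library). Its second row was −0.02 without WT replicate 1 (−0.02 to 0.16 over such fits) and against WT replicate 3 alone. Itgal was −0.09 with the covariate, −0.04 with trends removed and −0.16 against WT replicate 3 alone, and Itga4 was then 0.06. Itgax, Itgb2, Itgb1, Itgb7, Selplg and Cd44 kept their sign in every alternative run. Over 6 fits leaving out a library, the difference in Itgb2 per alpha partner ranged from −0.145 to −0.0928 and in the Itgam share from −2.02 to −1.22 percentage points. With both Itgam rows summed these differences were −0.111 and −1.08.

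Whether libraries of the same number share more than that number is not given in the labels. Deviations of same-numbered libraries from the group means correlated at 0.229, −0.0075 and 0.131, and those of the other pairs at −0.213 to 0.0834. Not every library correlated best with its own number, and a shared preparation was not tested. With the replicate block 4 genes and 0 of the 10 rows were called, and the exact p was 0.25, the smallest the pairs allow, for Itgb2 per alpha partner, the Itgam share and the Itgb7 share, the ratios for which it was run. TPM keeps no depth, so counting error of low genes such as Itgax and Itgb7 is unknown.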

Other observations

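Some genes near the adhesion lists had single libraries or low levels that stood out. Gcnt1, which branches O-glycans of PSGL-1, was at 32.6 and 34.2 TPM in LRP5-null replicates 1 and 2 and at 75.5 TPM in replicate 3, against 27.7 to 35.4 TPM in WT. Prg2, a granule protein gene of eosinophils in the marker lists, was at 0.85, 1.16 and 1.05 TPM in WT. It was at 2.91, 2.33 and 3.13 TPM in the libraries labelled LRP5-null (log2 fold change 0.91, limma adjusted p = 0.0341). Epx, another eosinophil marker, also lay higher there, at 0 to 0.0344 TPM in WT and 0.0675 to 0.141 TPM under that label. These levels were too low for Epx to be tested. Of the 9 eosinophil, basophil and mast cell markers 3 were tested, and their sum was 7.63 to 8.34 TPM in WT and 9.66 to 10.2 TPM in the libraries labelled LRP5-null. Erythroid markers summed to 42.0 to 49.0 and 35.0 to 45.2 TPM, and platelet markers to 3.77 to 5.45 and 5.83 to 6.73 TPM.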
